A study of Mus musculus with 16 samples.

Results

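miR-338-3p, miR-338-5p and miR-219 are microRNAs known from myelinating glia, and their levels in developing mouse sciatic nerve were followed here in mice with and without Dicer in Schwann cells. The members were chosen by name: every spot of the scanner output whose miRNA name was mmu-miR-338-3p, mmu-miR-338-5p or mmu-miR-219 was used, which gave 3 of the 650 miRNA names and 8 of the 1857 miRNA probes on the array. MicroRNAs were measured on Agilent mouse miRNA arrays, with 4 mice per group and 1 array per mouse, 16 arrays in all. The mutants were Dicer fl/fl Dhh-Cre+ mice, in which both Dicer1 alleles are floxed, and the controls were Dicer wt/fl Dhh-Cre+ littermates, which carry the same Cre transgene and 1 floxed allele of the same Dicer1tm1Bdh/J line. Nerves were taken at embryonic day 17 (E17), before myelin forms, and at postnatal day 4 (p4), when controls make myelin. Cre was driven by the desert hedgehog promoter, which is active in Schwann cells, and the study expected the other cells of the nerve to keep Dicer. The sex of each mouse was not given in the labels, and by the methods the mix of sexes was the same in the genotypes at E17 but not at p4. The arrays carry no Dicer1 probe, so that loss of the enzyme in any cell type cannot be checked in these data. The methods describe littermate pairs, but the labels do not say which arrays form a pair, and the tests below do not use the pairing. In whole nerves, fewer Schwann cells and less miRNA per Schwann cell cannot be told apart.

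MicroRNAs are short RNAs that are cut from a hairpin precursor by the nuclease Dicer and then guide repression of messenger RNAs, mainly through the seed, bases 2 to 8 from the 5′ end. A hairpin can give a mature miRNA from each of its arms, named 5p and 3p, and one of them usually accumulates far more than the other. In the central nervous system miR-338 and miR-219 accumulate as oligodendrocyte precursors differentiate, and both promote that differentiation by repressing factors that hold the precursors in an immature state. The question in the nerve was how the same miRNAs behave while Schwann cells begin to myelinate, and what is left of them without Dicer.

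The mature sequences are shown because they tell the 3 members apart and because neither the arms of miR-338 nor miR-219 share a seed. All 3 members were matched in RefSeq (GRCm38.p6), where the array's miR-219 goes under the later name mmu-miR-219a-5p. The seed is in capitals.
mmu-miR-338-3p: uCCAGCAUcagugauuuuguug
mmu-miR-338-5p: aACAAUAUccuggugcugagug
mmu-miR-219: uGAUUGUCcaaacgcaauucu
Each of these seeds belonged to that miRNA alone among the 1679 mature mouse miRNAs of the table, so that no relative with the same seed stands beside a member. Both arms of miR-338 come from 1 hairpin of 98 bases, the gene Mir338 at chr11:120014765-120014862 on the minus strand. The 5p arm occupies bases 26 to 47 of the hairpin (chr11:120014816-120014837) and the 3p arm bases 61 to 82 (chr11:120014781-120014802). The hairpin lies within the span of the protein-coding gene Aatk and is overlapped from the other strand by the hairpin Mir3065. miR-219 has the same mature sequence at 2 genes, Mir219a-1 (chr17:34025052-34025072, minus strand) and Mir219a-2 (chr2:29845689-29845709, minus strand, within the span of the protein-coding gene Cercam), so that an array signal could come from either. Each is overlapped by a hairpin on the other strand, Mir219c and Mir219b.

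The members differed widely in whether they were seen at all. A name was covered by 20 spots per array, and Feature Extraction, Agilent's image analysis program, marks each spot as well above background or not. miR-338-3p, with 2 probes, was well above background on 312 of its 320 spots and was detected on 16 of 16 arrays. miR-338-5p, with 4 probes, was well above background on 41 of 320 spots and was detected on 5 arrays, all 4 control arrays at p4 and 1 control array at E17. miR-219, with 2 probes, was detected on 0 of 16 arrays. No spot of a member was saturated. Both arms of miR-338 therefore entered the fits below, over 681 probes of the 281 expressed miRNAs, and miR-219 did not. miR-338-3p passed the filter on expressed miRNAs in all 4 groups, whereas miR-338-5p passed it only through the p4 controls, the group where it is high, so that its comparisons with that group are given as a description.

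miR-338-3p was the abundant member, and it was highest in control nerves at p4 and lowest in mutant nerves at p4. The levels that follow are quantile normalized log2 median signals of its brighter probe, A_54_P2545. In controls at E17 the 4 arrays read 10.45, 10.40, 9.99 and 10.09, a mean of 10.23 ± 0.226 (SD, n = 4). In mutants at E17 they read 9.64, 9.69, 9.57 and 9.73, a mean of 9.66 ± 0.0691 (SD, n = 4). These 8 arrays lay close together, with every mutant below every control. How many of all tested probes were separated in this way was not counted, so that the separation is a description. In controls at p4 the arrays read 11.14, 10.97, 10.57 and 11.72, a mean of 11.10 ± 0.476 (SD, n = 4). In mutants at p4 they read 8.38, 8.41, 7.77 and 8.45, a mean of 8.25 ± 0.324 (SD, n = 4). The lowest p4 control stood above all E17 nerves, and the highest p4 mutant stood below them all. From highest to lowest the order was thus controls at p4, controls at E17, mutants at E17 and mutants at p4, without overlap between neighbours, although the step between the genotypes at E17 did not pass the test given below.

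The dimmer probe of miR-338-3p, A_54_P2544, gave the same order. Its group means were 7.56 ± 0.242 in controls and 7.15 ± 0.107 in mutants at E17, and 8.51 ± 0.308 in controls and 6.50 ± 0.141 in mutants at p4 (SD, n = 4 each). On this probe the p4 mutants came close to the edge of detection, since the probe was marked present on 3 of these 4 arrays and on all 12 others. Across the 16 arrays the 2 probes had r = 0.970, as a description of probes that share the same libraries.

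**Figure D1:**
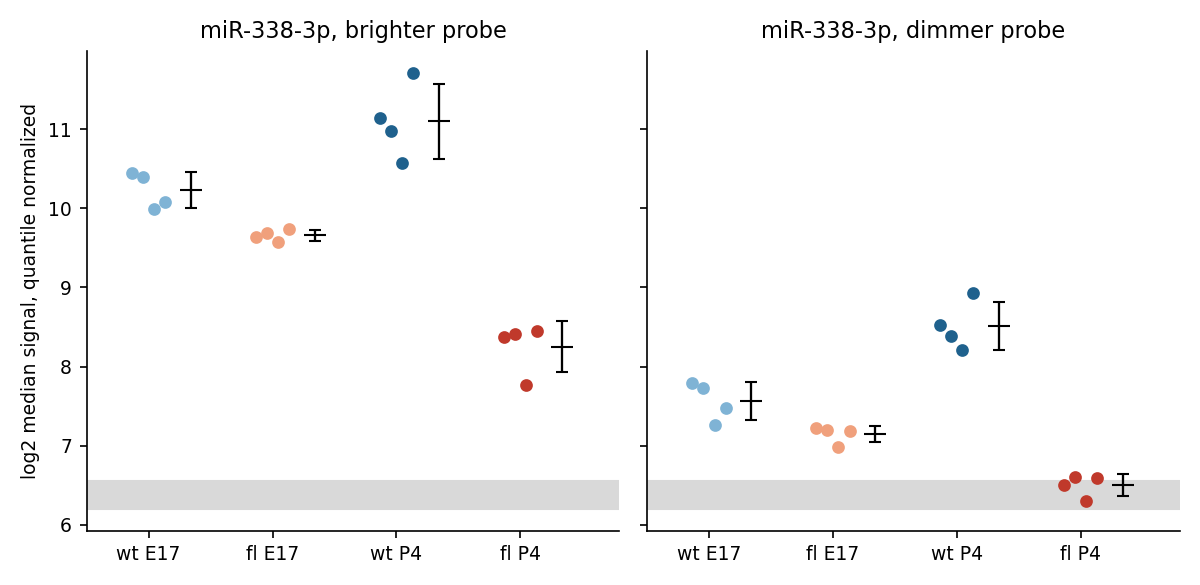
Quantile normalized log2 median signal (vertical axis) of the brighter and dimmer probe of miR-338-3p in the 4 groups (horizontal axis; wt, Dicer wt/fl controls, fl, Dicer fl/fl mutants). Each point is 1 array, bars are the mean ± SD of 4 arrays, and the grey band spans the lowest signal well above background on each array, 6.20 to 6.55. The p4 mutants lie lowest on both probes, between 7.77 and 8.45 on the brighter one.

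At p4, the comparison that asks what Dicer loss removes from a nerve that should be myelinating, miR-338-3p fell by 2.85 on the log2 scale (SE 0.206, 95% confidence interval -3.29 to -2.41), a 7.20-fold lower level in mutants, with an adjusted p of 9.29e-08 (limma, Benjamini-Hochberg over all 681 probes). The dimmer probe fell by 2.02 (SE 0.143, limma adjusted p 8.30e-08). To be called, a probe had to differ by 0.5 or more in log2 with an adjusted p no higher than 0.05. By this rule both miR-338-3p probes were called lower, against 7.93% of all tested probes. By size, the change of the brighter probe ranked 1 of 681, and it kept that rank under each other signal and scaling tried except the background-subtracted signal, where it ranked 11 at -3.26. The median difference of all tested probes at p4 was 0.02, a value that quantile normalization holds near 0.

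The size of the fall differed between scales. Feature Extraction also gives 1 background-subtracted gene signal per miRNA, here an intensity without any normalization between arrays. For miR-338-3p this gene signal was 3030, 3306, 2782 and 3775 in controls at p4. It was 178, 245, 110 and 215 in the mutants of that age. No mutant value came near a control value, and the mean log2 difference was -4.16, a 17.9-fold lower signal. The summed gene signals of all miRNAs were lower in these mutants too, by 0.963 on the log2 scale (exact permutation test over 8 arrays, two-sided p = 0.0286, the smallest this design allows). As a share of that sum, miR-338-3p made up 2.42% ± 0.448 in controls and 0.264% ± 0.0482 in mutants at p4 (SD, n = 4 each), a 9.17-fold difference with the same exact permutation p of 0.0286. Quantile normalization gave the smallest of these 3 sizes, and it also widened the spread of the p4 controls, whose SD was 0.188 on the log2 scale for the gene signal and 0.476 after normalization.

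**Figure D2:**
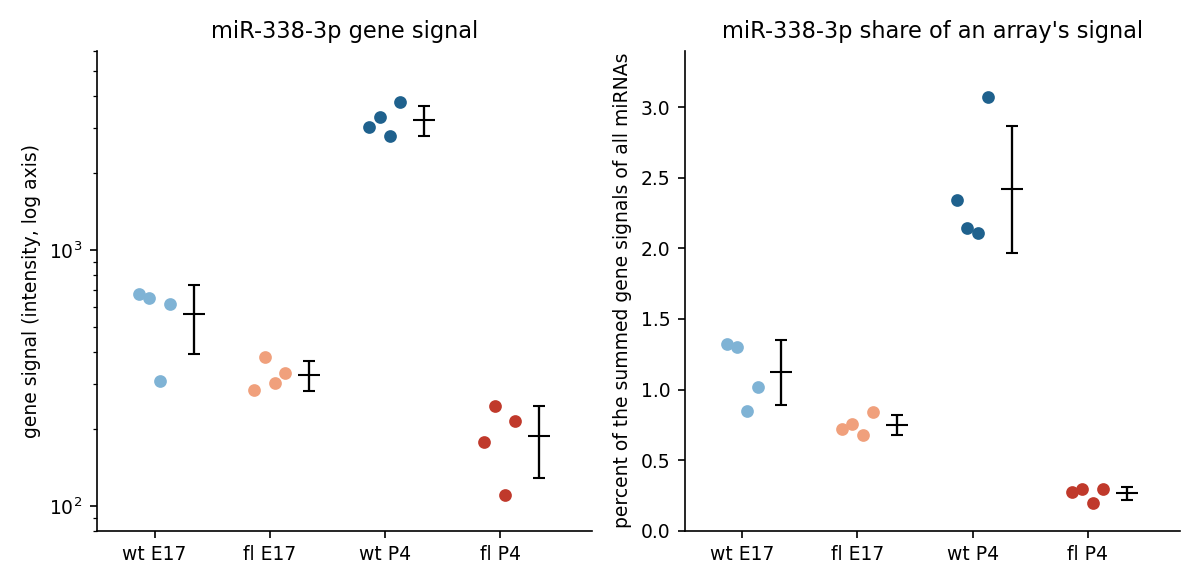
Background-subtracted gene signal of miR-338-3p (left, intensity on a log axis) and the same as a percent of the summed gene signals of all miRNAs on the array (right, linear axis from 0) in the 4 groups. Points are arrays and bars the mean ± SD of 4 arrays; the p4 controls lie between 2782 and 3775 in signal and the p4 mutants between 110 and 245.

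At E17 the genotypes differed much less. The brighter probe of miR-338-3p was lower in mutants by a log2 difference of -0.57 (SE 0.206, 95% confidence interval -1.01 to -0.13), and the limma adjusted p of 0.0925 missed the threshold. The dimmer probe gave -0.42 (SE 0.143, limma adjusted p 0.0762). By limma 0 of the 2 miR-338-3p probes were called, against 1.32% of all tested probes called lower, although both had an unadjusted limma p under 0.05 and 1 was called by the methods' own test. The difference of the brighter probe lay near the threshold and was called under 7 alternatives and not called under 24. It was called with the authors' deposited intensities (-0.63, limma adjusted p 0.00859) and with the E17 arrays fitted alone (limma adjusted p 0.0114). It was also called without control replicate 4 of p4, the array with the highest miR-338-3p signal (limma adjusted p 0.0421). It was not called with background-subtracted signals (-0.62, limma adjusted p 0.18) or without normalization between arrays (-0.65, limma adjusted p 0.058). The gene signals at E17 were 670, 649, 309 and 616 in controls and 283, 383, 301 and 329 in mutants. Control replicate 3 read far below the other controls and lay among the mutants, and its summed signal over all miRNAs was also the lowest of the 16 arrays, at 36495. On this scale the difference was -0.74 (exact permutation test, two-sided p = 0.0857), while the share of the summed signal was 1.12% ± 0.229 in controls and 0.749% ± 0.069 in mutants (SD, n = 4 each; exact permutation p = 0.0286). With any 1 of the mutant arrays left out, that p was 0.0571.

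The difference between the mutant effects was itself tested. The effect on miR-338-3p was larger at p4 than at E17 by -2.28 on the log2 scale for the brighter probe (SE 0.291, limma adjusted p 0.000103) and by -1.60 for the dimmer one (SE 0.202, limma adjusted p 9.38e-05). Both were called, against 4.99% of all tested probes called lower, and the brighter probe ranked 1 of 681 by size.

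From E17 to p4 miR-338-3p took opposite courses in the genotypes. In controls it rose by 0.87 on the brighter probe (SE 0.206, limma adjusted p 0.00414) and by 0.95 on the dimmer one (limma adjusted p 0.000126), both called higher, against 5.43% of all tested probes. In mutants it fell by 1.41 on the brighter probe (SE 0.206, limma adjusted p 0.000159) and by 0.65 on the dimmer one (limma adjusted p 0.00409), both called lower, against 5.29% of all tested probes. The dimmer probe, close to background in these mutants, was not called without normalization (-0.43, limma adjusted p 0.0881) or with normexp (-0.45). Between the ages the level of miR-338-3p, for an equal input of total RNA, thus fell in mutant nerves and rose in control nerves. The fall in mutants held on the gene signal without normalization, where it was -0.85 (exact permutation p = 0.0286), although the summed signal of all miRNAs in these nerves rose by 0.674 over the same interval. The rise in controls was 2.58 on that scale, where the summed signal rose by 1.46, and 1.12 as a share of the sum (exact permutation p = 0.0286 for each). All E17 arrays were on slide 1 and all p4 arrays on slide 2, and the effect of age cannot be told apart from that of the slide, whereas the genotypes were compared within a slide.

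miR-338-5p, the other arm of the same hairpin, had probes marked present only in control nerves at p4. The remaining array on which Feature Extraction detected it was replicate 1 of the E17 controls. On its brightest probe, A_54_P2542, the p4 controls read 6.62, 6.44, 6.52 and 6.46 in log2 signal. The p4 mutants read 5.93, 5.91, 5.88 and 5.93. The E17 controls read 6.20, 6.07, 6.03 and 6.04, and the E17 mutants read 5.95, 5.98, 5.89 and 5.95. The p4 controls stood apart from all 12 other arrays, and the lowest signal that was still well above background ran from 6.20 to 6.55 over the arrays. As a gene signal, miR-338-5p was 28.0, 26.8, 25.99 and 19.6 in the p4 controls, whereas the other 12 arrays lay between -4.94 and 2.32, about the zero that background subtraction leaves. In the p4 controls it made up 0.0187% ± 0.00252 (SD, n = 4) of the summed signal.

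At p4 miR-338-5p was at least 1.17-fold lower in mutants by its brightest probe and at least 1.13-fold lower by the next, A_54_P2541. These are bounds, because the mutant arrays were not well above background. They set the control mean against the mean over the mutant arrays of the lowest signal well above background on each, or of the probe's own signal where that was higher. The measured log2 differences were -0.60 (SE 0.0443) and -0.61 (SE 0.0369). No p is given for them, because the filter let miR-338-5p in through the p4 controls alone. The other 2 probes, A_54_P2539 and A_54_P2540, were well above background on no array and gave 0.02 and -0.04. From E17 to p4 in controls miR-338-5p was at least 1.15-fold higher on the brightest probe, with a measured difference of 0.43. At E17 the mutant minus control difference was -0.14 (limma adjusted p 0.0590) on the brightest probe and -0.15 (limma adjusted p 0.0224) on the next. Neither probe was well above background in either group, so that no fold is given. Their background-subtracted signals overlapped between the genotypes, at 2.66 to 10.7 and 3.06 to 7.37 in E17 controls and -1.02 to 9.10 and -3.13 to 3.94 in E17 mutants. A scaling to the 75th percentile, under which the median mutant minus control difference of all tested probes was 0.792 at p4, turned the p4 difference of the brightest probe to 0.04, which was -0.75 relative to that median.

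**Figure D3:**
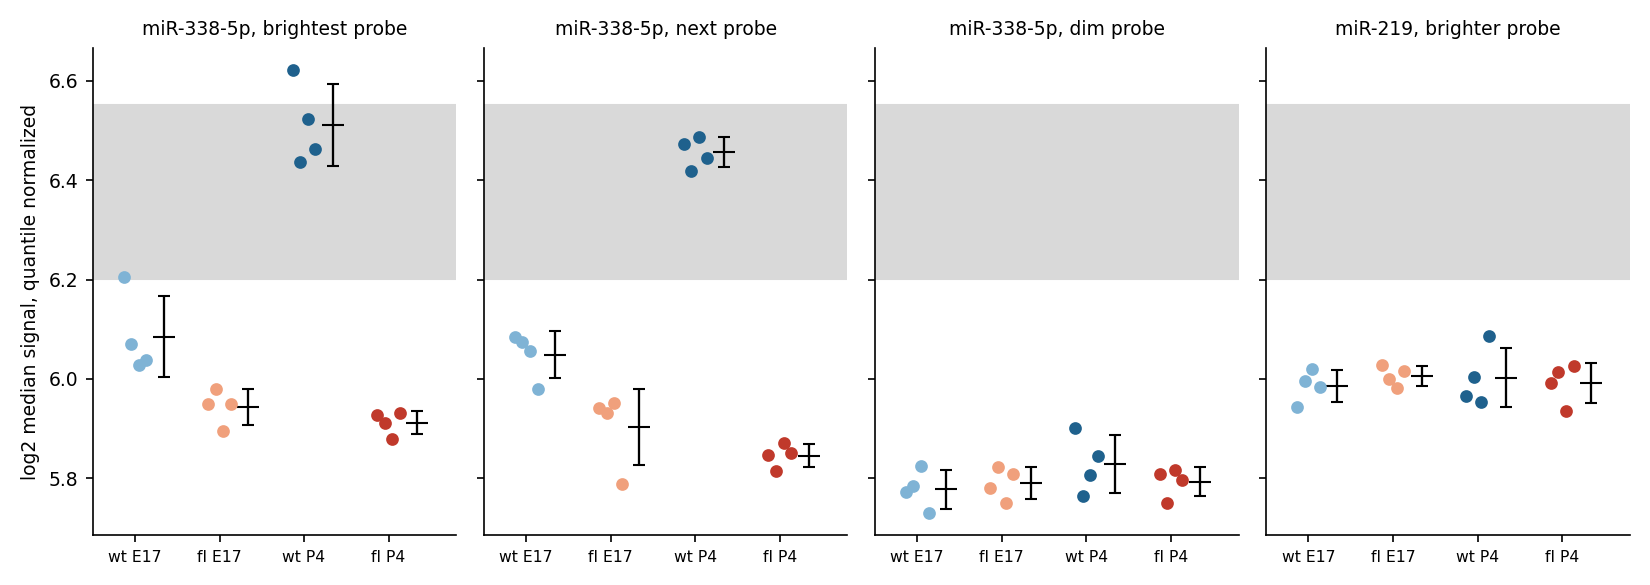
Quantile normalized log2 median signal (vertical axis) of 3 of the 4 probes of miR-338-5p and the brighter probe of miR-219 in the 4 groups (horizontal axis). Points are arrays, bars the mean ± SD of 4 arrays, and the grey band spans the lowest signal well above background on each array, 6.20 to 6.55. Only the p4 controls reach the band's upper part on the brightest and next miR-338-5p probes, and all miR-219 arrays stay under the band.

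Whether the arms of the hairpin changed by unequal amounts could not be settled, because the probes of the 5p arm were not well above background outside the p4 controls. On normalized signals the 3p minus 5p difference within an array was 4.59 ± 0.498 in controls and 2.34 ± 0.302 in mutants at p4 (SD, n = 4 each), a change of -2.25 (exact permutation p = 0.0286). On background-subtracted spot signals, with values set to at least 1 before the log, the change was 1.20, in the opposite direction. At E17 the same pair of values was -0.43 and 1.09. Over the 16 arrays the brightest probes of the arms had r = 0.814.

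**Figure D4:**
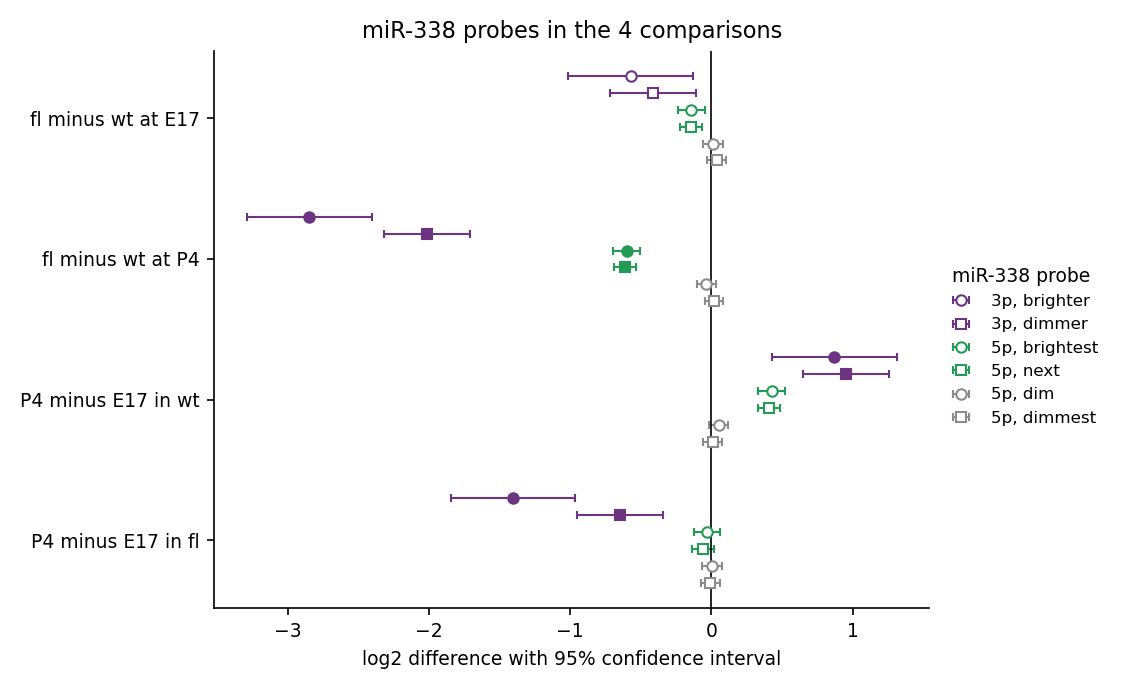
Log2 differences (horizontal axis) of the 6 tested miR-338 probes in the 4 comparisons (vertical axis), with 95% confidence intervals from limma; filled symbols met the limits of a call, which for 5p, admitted to the fit through the p4 controls alone, is a description. The 3p probes at p4, at -2.85 and -2.02, lie farthest from 0, and the 2 dimmest 5p probes stay near 0 throughout.

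miR-219 gave no signal that could be told from background in these nerves. The log2 signals of its probes, A_54_P1459 and A_54_P1460, ran from 5.90 to 6.09 over all arrays and groups, under the lowest signal well above background of 6.20. Its gene signal was 1.95 to 5.89 in controls and 2.74 to 4.77 in mutants at E17, and 2.34 to 8.43 in controls and 1.98 to 4.68 in mutants at p4, with all groups overlapping. Of its 320 spots 3 were marked well above background, on 3 arrays, and all 3 of these spots were also marked as outliers. No difference was tested. A level below the limit of the array is not shown to be absent.

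miR-338 was then set beside other miRNAs linked to oligodendrocyte differentiation. For the lists a miRNA counted as called when it had a called probe and no probe called the opposite way. The list of 7 that promote differentiation held the 3 members, miR-138, miR-32, miR-23a and miR-23b. Of these, 5 were tested, since miR-32 like miR-219 was not detected. At p4 4 of the 5 were lower in mutants and 0 were higher, where 10.7% of all expressed miRNAs were called lower. Of these 4, miR-338-5p passed the filter only through the p4 controls, so that the count is no support for a direction of the list. Besides both arms of miR-338 these were miR-138 (log2 difference -0.94, limma adjusted p 1.72e-08), which promotes oligodendrocyte differentiation, and miR-23b (-0.93, limma adjusted p 9.98e-05). The brightest miR-138 probe was present on 4 p4 control arrays and 1 p4 mutant array, so that its mutant level lay at the edge of detection. miR-23a, a paralog of miR-23b that is known to repress lamin B1 and to favour myelin gene expression in oligodendrocytes, gave 0.12 (limma adjusted p 0.545). The near-identical sequences of miR-23a and miR-23b can share array signal, so that their separate values are uncertain.

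At E17 0 of the 5 were called by limma, where 6.05% of all expressed miRNAs were called in either direction, and 2 of the 5, both arms of miR-338, had a probe with an unadjusted limma p under 0.05, and 1 was called by the methods' own test. From E17 to p4 in controls 3 rose, miR-338-3p, miR-138 (at least 1.80-fold, since its probe was present on no E17 control array, with a measured difference of 1.05 and limma adjusted p 4.20e-09) and miR-23b (0.44 on its brightest probe, limma adjusted p 0.0203, called on another probe), where 8.19% of all expressed miRNAs rose. In mutants over the same interval only miR-338-3p of the 5 was called, where 7.47% of all expressed miRNAs fell. miR-138 gave 0.14 and miR-23b -0.21 in mutants.

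The second list, for short the progenitor list, held 12 miRNAs tied to proliferating or immature progenitors or listed as inhibitory. Among them were the miR-17 to miR-92a cluster and miR-9. Some also stand in lists of cell types below, miR-9 with neurons, and miR-145 and miR-199a-5p with fibroblasts and smooth muscle. Of the 12 miRNAs 10 were tested. At p4 4 of these were lower in mutants, miR-9, miR-9*, miR-20a and miR-92a, and 1 was higher, miR-199a-5p (1.14, limma adjusted p 0.00030), beside the 10.7% of all expressed miRNAs called lower and 10.3% called higher. Lower levels in mutants at p4 were thus found in both lists. From E17 to p4 in mutants 5 of the 10 fell, beside 7.47% of all expressed miRNAs. These lists were drawn up with earlier results of these arrays known, and their counts are descriptions.

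**Figure D5:**
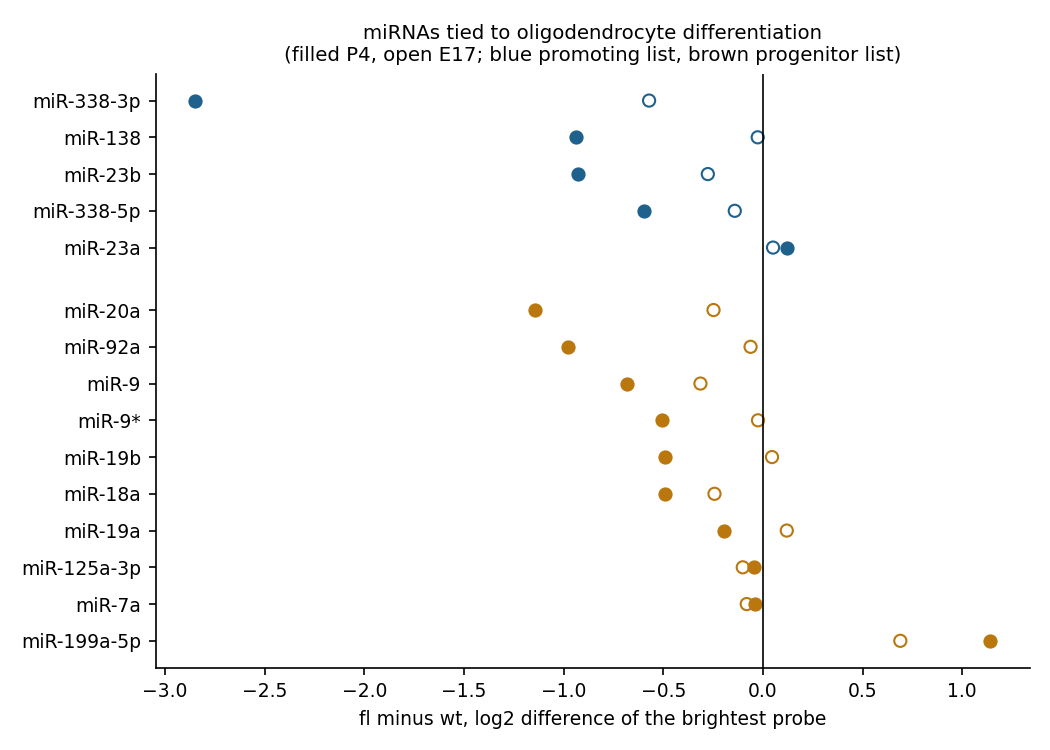
Mutant minus control log2 difference (horizontal axis) of the brightest probe of each tested miRNA of the promoting list (blue) and the progenitor list (brown), at p4 (filled) and E17 (open). miR-338-3p lies farthest from 0, at -2.85 at p4, and miR-23a and miR-199a-5p are the only ones above 0 at p4.

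The miRNAs whose brightest probe followed that of miR-338-3p most closely over the 16 arrays were miR-204 (r = 0.963), miR-181b (r = 0.945), miR-20b (r = 0.927), miR-93 (r = 0.911) and miR-106b (r = 0.910). The points share 4 groups, the ages and the normalization, and the mean correlation within groups was lower, 0.524 for miR-204. miR-204 rose by 0.86 in controls (limma adjusted p 0.00153), fell by 0.96 in mutants (limma adjusted p 0.00102) and was lower in mutants at p4 by a log2 difference of -2.04 (limma adjusted p 5.28e-07). It was thus alike in course to miR-338-3p. Its falls were smaller than those of the brighter miR-338-3p probe (-1.41 with age in mutants, -2.85 at p4), whereas the rises in controls were nearly equal (0.87 for that probe). They were not smaller than the falls of the dimmer miR-338-3p probe (-0.65 and -2.02). miR-20b, miR-93 and miR-106b, which are close in sequence and can share array signal, were lower in mutants at p4 by -1.96, -0.92 and -0.82, but between ages in controls they gave only -0.10, 0.04 and 0.08. Closest to miR-338-5p were miR-34a (r = 0.970), miR-27b (r = 0.968), miR-146b (r = 0.959), miR-340-5p (r = 0.959) and miR-30a* (r = 0.958). The miR-338-5p probe was marked present in the p4 controls alone, so that these r mainly reflect a high level in that group. Like that of miR-338-5p, the brightest probes of miR-146b and miR-340-5p were present on the 4 p4 control arrays and on none of the other 12. miR-146b read 8.17 in the p4 controls and, not well above background, 6.05 in the p4 mutants, which makes it at least 3.70-fold lower there. Both miR-146b and miR-340-5p, like miR-338-5p, passed the filter only through the p4 controls.

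Some miRNAs that mark other cell types of the nerve were higher in mutants at p4. Of the fibroblast and smooth muscle list 3 of 4 tested miRNAs were higher in mutants (miR-199a-3p, miR-199a-5p and miR-214), as were 1 of 2 for endothelium (miR-126-3p), 1 of 3 for erythroid cells (miR-451) and 1 of 3 for leukocytes (miR-223), where 10.3% of all expressed miRNAs were called higher. Of the 4 muscle miRNAs 0 were called by limma (0 also at an unadjusted p under 0.05 and by the methods' own test). Their log2 differences were all positive, 0.56 to 0.95 (limma adjusted p 0.118 to 0.257). Of 5 neuronal ones 1, miR-9, was called lower (-0.68), and its brightest probe was present on no p4 mutant array. The other neuronal ones went the other way, miR-124 by 0.31, miR-137 by 0.32, miR-128 by 0.10 and miR-129-3p by 0.08, all under the size limit of a call. At E17 the called ones were 3 of the 4 tested fibroblast and smooth muscle miRNAs, 1 of 3 erythroid (miR-486) and 1 of 3 leukocyte miRNAs (miR-142-3p). All were higher in mutants, beside the 6.05% of all expressed miRNAs called in either direction. Of the fibroblast and smooth muscle ones, miR-199a-3p (0.53, limma adjusted p 0.176) and miR-214 (0.53, limma adjusted p 0.142) were not called on their brightest probe but on another. The erythroid and leukocyte miRNAs called differed between the ages. miR-451 (1.47, limma adjusted p 0.0624) and miR-223 (0.36, limma adjusted p 0.0670) were not called at E17, nor miR-486 and miR-142-3p at p4. The summed gene signal of the fibroblast and smooth muscle list, without normalization, was 4139 to 5658 in controls and 4020 to 7293 in mutants at p4. That of the muscle list was 259 to 572 and 198 to 988. The corresponding sums for endothelium were 1138 to 2381 in controls and 927 to 1512 in mutants, and for leukocytes 228 to 342 and 280 to 417. For erythroid cells they were 205 to 1746 and 453 to 1218, and for neurons 187 to 198 and 103 to 154. The neuron list was the only one of these in which the genotypes did not overlap at p4. The sum of all miRNAs did not overlap at p4 either, at 122860 to 154076 in controls and 56841 to 83630 in mutants. Of the defining markers miR-145, miR-144, miR-142-5p and miR-150 were detected on no p4 array. The part of these cell types in the level of miR-338 was not tested.

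Over the whole series, the summed gene signal of an array was 36495 to 60374 at E17, 122860 to 154076 in p4 controls and 56841 to 83630 in p4 mutants, with 197 to 260 miRNAs detected. Correlations between arrays of a group ran from 0.972 to 0.998.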

How the data were processed

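Total RNA of sciatic nerves from 16 mice, 1 array per mouse, was labelled with Cy3 by the study. It was hybridised to Agilent mouse miRNA arrays of 1 colour (design 021828 in the headers). The authors deposited the output of Agilent Feature Extraction 10.5.1.1 for each array, which lists raw and background-subtracted intensities spot by spot, not yet normalized between arrays. They also deposited a table of normalized probe intensities with present flags, which was used as an alternative.

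The median spot signal was taken to log2, quantile normalized over the 13000 spots that are not controls, and averaged per probe without outlier spots, after the study's methods. Quantile normalization gives all arrays 1 distribution, so that a change of the total is removed. A miRNA was taken as expressed when the share of arrays with detection reached 0.5 in any group. Groups followed the labels. A limma model (version 3.58.1, R 4.3.3) with 1 mean per group was fitted to all 16 arrays, in place of the methods' own test on pairs of groups, and p-values were adjusted by Benjamini-Hochberg over 681 probes. On simulated data with 200 probes changed by 1 on the log2 scale, the mutant minus control test recovered 99.5% at p4 and 98.5% at E17. The simulated noise was independent between probes and normalization was not repeated. A change as small as the -0.57 of miR-338-3p at E17 was not simulated, so that these shares do not tell how often it would be called. Shares of summed gene signal and differences between arms were tested by two-sided exact permutation over arrays (4 against 4, smallest p 0.0286). The number of arrays limits the precision.

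Named are all members with every probe, the promoting list, and the 5 miRNAs most correlated with each arm. The members, lists and tests were chosen with earlier results of these data known. Mature sequences came from RefSeq (GRCm38.p6); 162 of the 611 mouse names on the array stand there unchanged. Alternatives varied the signal, scaling, filter, test, pairing, limits and arrays. Figures were drawn with matplotlib 3.10.9.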

Additional observations from a re-analysis of the deposited data

Results flagged for a closer look

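The effect of Dicer loss on miR-338-3p differed between the ages by limma's test of the difference itself, by -2.28 on the log2 scale on the brighter probe and -1.60 on the dimmer one.

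In 6 of 36 groups of 4 arrays tested, 1 array lay apart from the other 3 by Dixon's criterion, which chance meets in about 1 group in 20. Mutant replicate 3 at p4 read 7.77 in log2 signal on the brighter miR-338-3p probe, below its group's other arrays at 8.38 to 8.45. The same array accounts for the low 3p minus 5p difference of 1.89, where the others gave 2.45 to 2.52. Control replicate 3 at E17 had a log2 gene signal of miR-338-3p of 8.27, against 9.27 to 9.39 in the other controls. Mutant replicate 3 at E17 read 6.99 on the dimmer miR-338-3p probe, with the others at 7.18 to 7.22. For miR-338-5p, mutant replicate 4 at E17 read 5.79 on A_54_P2541, below the other arrays at 5.93 to 5.95, and mutant replicate 1 at p4 read 5.77 on A_54_P2539, above the others at 5.74, both not well above background.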

How the results depend on the processing

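On its brighter probe, the fall of miR-338-3p in mutants at p4 was called under all 31 alternatives (log2 difference -3.85 to -2.43), as was its fall with age in mutants. On the dimmer probe the latter was not called with normexp (-0.45), without normalization (-0.43) or where a difference of 1 was required (-0.65). Its rise in controls was lost only where a log2 difference of 1 was required (0.87). The E17 difference of miR-338-3p was called at the 75th percentile (-0.52), with deposited intensities (-0.63), array weights (-0.59), the methods' t-test, the E17 arrays alone and the fit without control replicate 4 of p4 (-0.57 each). For miR-338-3p the E17 difference was not called under 24 alternatives and ran from -0.65 to -0.50 with 1 array left out. Its share of the summed signal at E17 was -0.69 to -0.48 with 1 array left out, past the threshold in 4 of 8 fits, and -0.74 without division by the sum (exact permutation p = 0.0857).

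miR-338-5p at p4 was under the limits of a call with normexp (-0.40), the mean of its probes (-0.31) or a required difference of 1 (-0.60), and turned to 0.043 at the 75th percentile. There A_54_P2541 gave 0.055 and A_54_P2540 0.83 at p4, and A_54_P2539 gave -0.85 and A_54_P2540 -0.82 with age in controls. Median differences of all tested probes under that scaling were 0.792 at p4 and -0.742 with age in controls. With background-subtracted signals miR-338-5p met the limits of a call at E17 (-1.71), with age in controls (2.34) and for the difference of effects (-2.75). Without normalization the last 2 were 0.93 and -1.02, and with array weights the difference of effects was -0.51. All of these are descriptions, since miR-338-5p passed the filter only through the p4 controls. Outside that group its probes were not well above background, so that the sizes of these differences rest on background values. Against the sum without the 10 brightest miRNAs, its share changed by -0.0431 percentage points at p4, -0.0104 at E17 and 0.0326 with age in controls. The 3p minus 5p difference turned to 1.20 at p4 and 1.09 at E17 with background-subtracted signals. With 1 array left out it was -0.49 to -0.37 at E17, short of the threshold without mutant replicate 1, 2 or 3 (exact permutation p = 0.0571), and 0.22 to 0.63 with age in controls, past the threshold there without control replicate 3 of p4, and 0.69 with the mean of all probes. By any spot well above background, miR-219 was seen on 3 arrays.

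At p4 59 miRNAs were called, against 148 with background-subtracted signals, 90 without normalization, 225 at the 75th percentile and 14 with a required difference of 1, where the oligodendrocyte lists held 3.

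The methods describe littermate pairs, but the replicate numbers did not meet the criterion for pairing, a correlation over 0.1 in every pair: deviations of same-numbered arrays had r = -0.519 to 0.0901 at E17 (0 of 4 pairs over 0.1) and -0.281 to 0.459 at p4 (3 of 4), and 1 of 8 control arrays correlated best with its own number. With the replicate block miR-338-3p was called at E17 (-0.57, limma adjusted p 0.0156). In the paired exact permutation tests, whose smallest p is 0.125, the values were -2.25 (p4) and -0.43 (E17) for the arms and -3.20 and -0.56 for the share.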
